A study of Mus musculus with 6 samples.

Results

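The 10 genes described here carry or mark the signals of the hair placode, and their transcripts were measured by RNA-seq of mouse epidermis: Edar, Edaradd, Dkk4, Fgf20, Sostdc1, Trps1, Pthlh, Krt79, Lrig1 and Lgr6. They were chosen by name, and all 10 had a row in the deposited table of 17025 genes. The cells were epidermal progenitors sorted for integrin α6, a surface receptor of basal keratinocytes, from mice on postnatal day 0. Of the 6 libraries, 3 were labelled control (genotype K14Cre,Ash2lF/+) and 3 conditional knockout, cKO (genotype K14Cre,Ash2lF/F), and the treatment was given as none. Every animal, controls included, thus carried the Cre recombinase and at least 1 floxed Ash2l allele, so the controls were heterozygous and not wild type. The K14 promoter drives the Cre in basal keratinocytes and their descendants, so cells of other origin that entered the sort would keep the gene.

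Ectodysplasin, encoded by Eda, is a ligand of the tumour necrosis factor family that binds the receptor EDAR on cells of the forming placode. EDAR recruits the adaptor EDARADD, which leads through TRAF6 and the IκB kinases to NF-κB. Among the genes this pathway is known to switch on are those for secreted signals that set the size and spacing of follicles, while Lrig1, Lgr6 and Krt79 mark cells of the follicle above the bulge.

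The total level of the targeted gene was higher, not lower, under the cKO label. Ash2l, whose product is shared by the SET1 and MLL histone methyltransferase complexes, stood at 12.4 to 18.1 FPKM in control-labelled libraries and at 22.9 to 30.9 FPKM in cKO-labelled libraries. FPKM counts fragments relative to gene model length and library depth, and differences here are in log2(FPKM + 1), labelled cKO minus labelled control. The log2 difference was 0.81 (SE 0.19, n = 3 per group, limma adjusted p = 0.024), no longer called without control 1, control 3, cKO 1 or cKO 2 (0.67 to 0.94 with each library left out). All directions given here therefore rest on labels that the total level of the targeted gene does not bear out, and groups are named by label only. A gene total does not show whether the floxed part was lost. Nothing states that the libraries came from separate animals, so p-values speak only to the spread among these libraries, which may be technical.

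The libraries held 31578875 to 36027550 fragments. Basal markers were present in all of them, with a summed level of 7 genes of 4878 to 8503 FPKM in control-labelled libraries and 8002 to 10445 FPKM in cKO-labelled libraries. The 7 did not move together (median -0.08). Krt15 was called higher (2.23, limma adjusted p = 0.00215) and Itgb4 lower (-1.7, adjusted p = 0.0437), and the others were not called. Among the latter, Itga6, the gene of the integrin used for the sort, was at -1.32 (adjusted p = 0.071). Melanocyte markers were called lower under the cKO label, 10 of 10 (summed level 3003 to 3433 and 182.1 to 402.7 FPKM), where 13.6% of all genes were. Also called lower were 2 of 6 tested Schwann cell markers and 2 of 3 of smooth muscle. The part of these other cells in the results was not tested. Immune markers summed to at most 4.04 FPKM and endothelial ones to at most 7.98 FPKM in any library. The immune marker Cd207 was not analysed here. The median difference of all genes tested was -0.17, or 0.01 after median-of-ratios scaling.

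Among the 10 genes, 8 reached the mean of 1 FPKM needed for the test, and 4 of them were higher in the libraries labelled cKO: Edaradd, Sostdc1, Krt79 and Lrig1. Of all 11603 genes tested, 5.87% were called higher. None of the 8 was called lower by limma, against 13.6% of all genes, with 1 of them (Pthlh) below it at an unadjusted p under 0.05 and none called by limma-voom on recovered fragments. The libraries of the groups did not overlap for the 4 called genes and for Pthlh, the latter with lower values under the cKO label. Among the genes tested, 12% did not overlap with higher and 30.9% with lower values in those libraries. Without the library labelled control 2 or control 3, 1 of the 4 remained called (Krt79), and without control 1, cKO 1 or cKO 2 there were 2 (Krt79 and Sostdc1). Those shares are of unscaled FPKM: 681 genes were called higher and 1576 lower, and after median-of-ratios scaling 998 were higher and 1054 lower. Dkk4 and Fgf20 lay under the filter and are given by their values. Permuting the labels (exact permutation test, two-sided) gave p = 0.1, which 3 against 3 cannot go below, for Edaradd, Dkk4, Sostdc1, Pthlh, Krt79 and Lrig1. For Edar and Fgf20 the exact permutation p was 0.2, for Lgr6 0.7 and for Trps1 0.8.

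**Figure D1:**
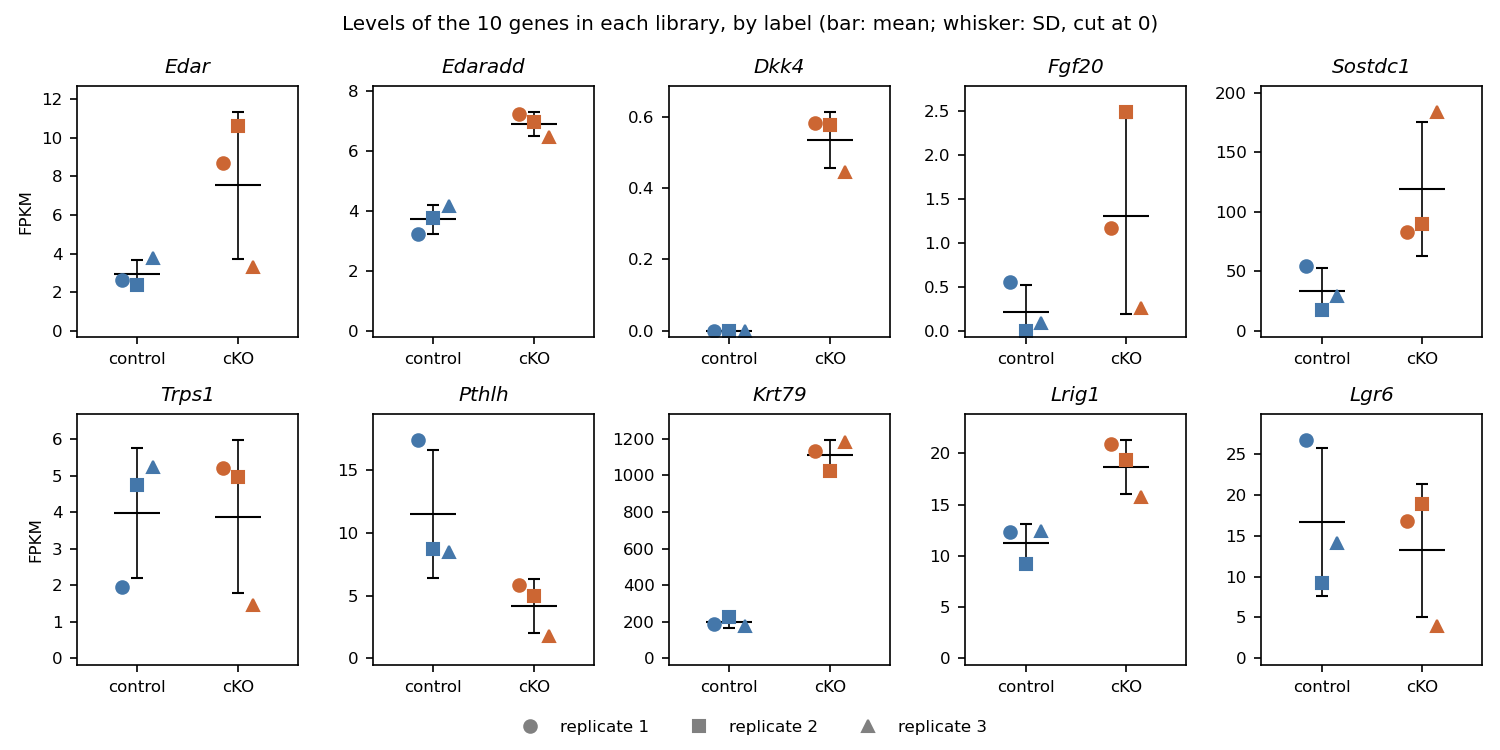
FPKM (vertical axis, linear and from 0, scaled per gene) of the 10 genes in the 3 libraries labelled control (blue) and the 3 labelled cKO (orange), with the mean and SD. Krt79, Edaradd, Lrig1, Sostdc1 and Dkk4 have no overlap between the groups with higher values under cKO, while the triangle of cKO 3 falls among the control points for Edar and Fgf20 and below them for Trps1 and Lgr6.

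Edar, the receptor, was above the control range in 2 of the libraries labelled cKO and, in unscaled FPKM, inside it in the other. It stood at 2.61, 2.39 and 3.77 FPKM in control-labelled libraries 1, 2 and 3, and at 8.72, 10.6 and 3.28 FPKM in cKO-labelled libraries 1, 2 and 3. In unscaled FPKM the library labelled cKO 3 lay inside the control range, so the groups overlapped. With 440 to 2004 fragments per library, counting error was small beside that spread. The means were 2.92 ± 0.74 and 7.53 ± 3.79 FPKM (SD, n = 3 each). The difference of 1.02 (SE 0.38) did not pass the test (limma adjusted p = 0.0964). It was 1.45 (adjusted p = 0.0076) without the library labelled cKO 3 and 0.73 (adjusted p = 0.252) without cKO 2. After median-of-ratios scaling it was 1.17 (limma adjusted p = 0.0502). The scaling factors were 1.069 to 1.1 for the control-labelled libraries and 0.8494 for cKO 3. Divided by them, Edar in cKO 3 stood above all controls, so the overlap holds for unscaled FPKM only.

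Edaradd, the adaptor that binds the receptor's death domain, rose with little spread. Its values were 3.22, 3.76 and 4.18 FPKM in control-labelled libraries and 7.25, 6.98 and 6.46 FPKM in cKO-labelled libraries. Every cKO value lay above every control value, the library labelled cKO 3 included. The difference was 0.75 (SE 0.18, limma adjusted p = 0.0272), from 3.72 ± 0.484 to 6.9 ± 0.401 FPKM. The call was lost without any library other than cKO 3 (adjusted p = 0.056 without control 1 or control 3, 0.0835 without control 2, 0.103 without cKO 1 and 0.0968 without cKO 2), at differences of 0.67 to 0.82. Per length, Edar was below Edaradd in the 3 libraries labelled control, with ratios of 0.812, 0.635 and 0.901. In those labelled cKO the ratio was 1.2, 1.51 and 0.508, so by these lengths the order turned in cKO 1 and 2 and not in cKO 3. The gene model lengths were 5569 bases for Edar and 8185 for Edaradd, against GRCm38 exon unions of 3637 and 6668 bases. Which gene is the higher within a library depends on the lengths used, while the change of the ratio between libraries does not.

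The promoters of this receptor and adaptor pair are shown because both genes stood higher in the libraries labelled cKO 1 and 2. Of the 10 genes, 6 were matched by symbol in the RefSeq promoter table (build GRCm38.p6), all but Dkk4, Fgf20, Sostdc1 and Trps1. Each window holds the 250 bases before the start of the gene, 5′ to 3′ on the gene's strand. Capitals mark matches, on either strand, to the TCF/LEF core of Wnt target genes (CTTTGA, or with another last base CTTTGT), to GATA motifs, which TRPS1 is known to bind (AGATAA, or with another first base TGATAA, or with another last base AGATAG, or with both changed TGATAG), and to the NF-kappaB consensus.
Edar (chr10:58675697-58675946, minus strand): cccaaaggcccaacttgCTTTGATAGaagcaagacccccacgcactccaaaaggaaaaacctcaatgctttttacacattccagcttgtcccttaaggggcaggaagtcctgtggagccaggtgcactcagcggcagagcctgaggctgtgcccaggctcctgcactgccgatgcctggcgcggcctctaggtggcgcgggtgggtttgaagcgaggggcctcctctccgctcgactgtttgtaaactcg
Edaradd (chr13:12520451-12520700, minus strand): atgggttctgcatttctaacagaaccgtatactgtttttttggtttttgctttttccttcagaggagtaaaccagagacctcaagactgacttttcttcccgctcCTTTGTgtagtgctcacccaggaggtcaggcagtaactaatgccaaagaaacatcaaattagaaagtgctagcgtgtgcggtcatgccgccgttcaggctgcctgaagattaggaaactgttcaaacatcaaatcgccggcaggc
Edar held 1 TCF/LEF core, 233 to 228 bases before the start, which overlapped a TGATAG match at 230 to 225 bases. Edaradd held 1 TCF/LEF core, 145 to 140 bases before the start. Neither window had a match to the NF-kappaB consensus. Of 32851 promoter windows of that length, 27.6% held a TCF/LEF core, 26.5% a GATA motif and 7.25% the NF-kappaB consensus. The windows of Pthlh, Lrig1 and Lgr6 held none of these letters. A match describes letters in a window and shows no bound factor.

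Around the receptor, those genes of the ligand and kinase cascade that passed the test were lower, unlike Edaradd. Of 18 ectodysplasin signalling components, all tested, 7 were lower and none higher, where 13.6% of all genes were called lower and 5.87% higher. At an unadjusted p under 0.05, 9 were lower and none higher, and by limma-voom 5 and 0. Their median was -0.51, against -0.17 over all genes. Eda itself stood at 7.35, 5.9 and 5.56 FPKM in control-labelled libraries and 4.35, 5.38 and 2.78 FPKM in cKO-labelled libraries. In unscaled FPKM these groups did not overlap, by the narrow step from 5.38 to 5.56 FPKM. Divided by the median-of-ratios factors (1.1 for control 3 and 0.9836 for cKO 2), cKO 2 stood above control 3 and the groups overlapped. The difference of -0.52 (SE 0.24) was not called (limma adjusted p = 0.174). Ligand over receptor, per length, was 2.82, 2.47 and 1.47 in control-labelled libraries and 0.499, 0.509 and 0.846 in cKO-labelled libraries.

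Eda2r, the receptor of the other ectodysplasin splice form, was lower in the libraries labelled cKO (1.55, 1.67 and 3.02 against 0.335, 0.794 and 0.202 FPKM; difference -1.08, SE 0.28, adjusted p = 0.0339). Its call was lost without any library other than control 1 (highest adjusted p 0.101). Traf6, the ubiquitin ligase next to EDARADD, was at -0.48 (SE 0.26, adjusted p = 0.221). The kinase gene Ikbkb fell by 1.02 (SE 0.14, adjusted p = 0.00399) and the NF-κB subunit gene Rela by 0.86 (SE 0.13, adjusted p = 0.00556), and both kept their calls without any 1 library. Chuk, for the partner kinase, was at -0.76 and the inhibitor gene Nfkbib at -0.75, and both lost their calls without control 2 or cKO 2 (highest adjusted p 0.0689 and 0.0834). Median-of-ratios scaling left 5 of the 7 calls, and the count was 2 without control 2 or cKO 2 and 4 without control 3.

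**Figure D2:**
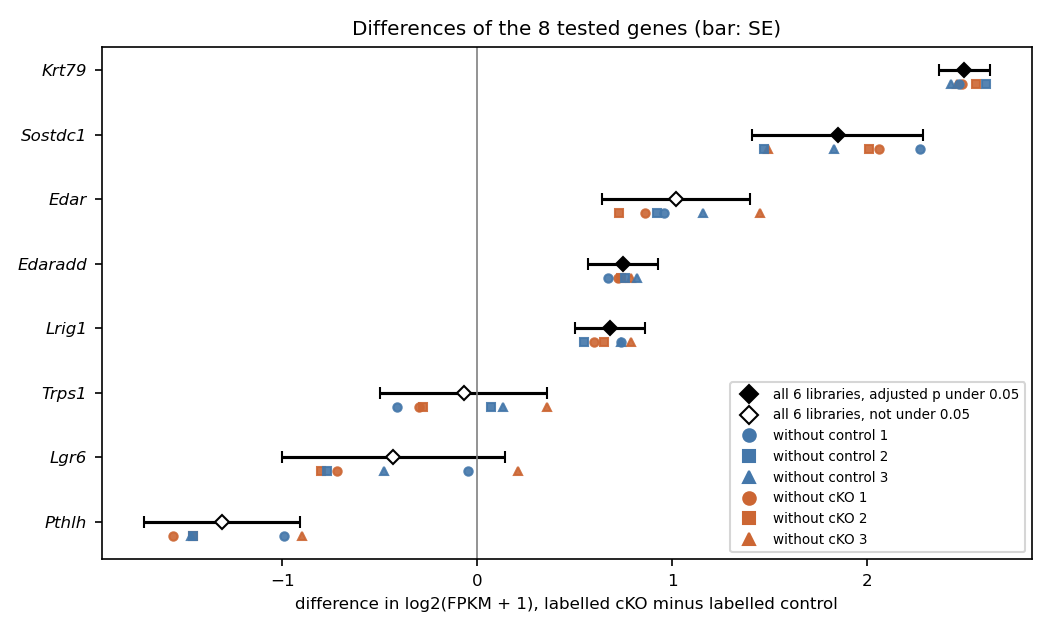
Difference in log2(FPKM + 1), labelled cKO minus labelled control, for the 8 tested genes (horizontal axis), with the SE; small symbols give the difference with each library left out. Krt79 stays between 2.43 and 2.61, while Lgr6 crosses 0 without cKO 3, and Trps1 without cKO 3, control 2 or control 3.

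Dkk4 and Fgf20, both known ectodysplasin target genes that encode secreted placode signals, were rare transcripts in every library. Dkk4, a Wnt inhibitor, was listed at 0 in control-labelled libraries 1, 2 and 3 and at 0.584, 0.576 and 0.444 FPKM in cKO-labelled libraries, which is 27, 27 and 22 recovered fragments. A count of 0 in a library of this depth allows up to 3 fragments, or 0.066 to 0.069 FPKM. Against that limit per library the mean of the libraries labelled cKO, 0.535 FPKM, was at least 7.96-fold higher. No adjusted p is given, since with 0 in every control it could pass a lower filter only through the libraries where it was found. Such limits cover counting error only, and in a bulk library fewer cells of a type and less RNA per cell cannot be told apart.

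Fgf20, the placode growth factor that signals to the dermis below, was uneven within each group. It stood at 0.558, 0 and 0.0826 FPKM in control-labelled libraries (26, 0 and 4 fragments), and at 1.17, 2.49 and 0.263 FPKM in cKO-labelled libraries (58, 125 and 14 fragments). As with Edar in unscaled FPKM, cKO 1 and 2 were above all controls and cKO 3 lay inside their range. In the GRCm38 annotation its exons overlap those of Micu3, on the opposite strand, by 202 bases. The gene model length behind its FPKM, 1476 bases, is the exon union of 1678 bases less that overlap. Micu3 stood at 7.74 ± 0.893 and 4.79 ± 1.5 FPKM, which was not called (-0.62, adjusted p = 0.107).

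Unlike Dkk4 and Fgf20, which were not tested, 12 other placode targets of the pathway passed the filter. Of these, 3 were called higher (Foxi3, Wnt10b and Shh) and 1 lower (Cxcl10), where 5.87% and 13.6% of all genes were. The median of the 12 was 0.51, against -0.17 over all genes. Foxi3, a placode transcription factor gene, stood at 1.55, 1.25 and 3.36 FPKM in control-labelled libraries and 11, 17.4 and 12.8 FPKM in cKO-labelled libraries, and kept its call without any 1 library. Wnt10b (1.41, adjusted p = 0.0473) lost its call without control 2, control 3, cKO 1 or cKO 2, and Shh (1.6, adjusted p = 0.0491) without these or control 1 (highest adjusted p 0.126 and 0.156). Both calls also ended with a pseudocount of 0.1 or 0.01, and with no filter or one at 0.1 FPKM. They ended too without a variance trend and with replicate number as a block. Each of these settings left 1 higher target. Cxcl10, a chemokine gene also driven by interferon, stood at 2.96, 4.42 and 5.01 FPKM in control-labelled libraries and 0.027, 0.213 and 0 FPKM in cKO-labelled libraries (-2.23, adjusted p = 0.00188). These 3 higher genes were also the only ones called among 19 tested placode and hair germ markers (6 higher and 1 lower at an unadjusted p under 0.05; 4 and 0 by limma-voom), whose median was 0.63. Without control 2, control 3, cKO 1 or cKO 2 only 1 target was higher, and the count of higher placode markers ran from 1 without control 2, cKO 1 or cKO 2 to 6 without cKO 3.

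The feedback genes Etv4, Etv5, Spry2 and Dusp6 and the ligand gene Fgf7 were lower, and the receptor gene Fgfr3 was higher. These were the 5 lower and 1 higher of 14 tested FGF ligand, receptor and feedback genes (median -0.57, against -0.17 over all genes). Of all genes tested, 13.6% were called lower and 5.87% higher. Etv4 and Etv5, transcription factor genes that FGF signalling induces, stood at 16.4 to 28.4 and 9 to 18.8 FPKM in control-labelled libraries and at 3.92 to 9.68 and 1.87 to 4.49 FPKM in cKO-labelled libraries. They fell by 1.61 (SE 0.32, adjusted p = 0.013) and 1.67 (SE 0.34, adjusted p = 0.0139), and lost their calls without control 2 (adjusted p = 0.0581 and 0.0564). Spry2, a feedback inhibitor gene, was at -0.98 (SE 0.24, adjusted p = 0.0268), not called without control 2, control 3 or cKO 1 (highest adjusted p 0.0987). Less firm were Dusp6 (-1.29, limma adjusted p = 0.0453), called in 7 of 18 alternatives, and Fgf7 (-0.98, adjusted p = 0.0457), called in 6 of 17. Both lost their calls under median-of-ratios scaling. Fgfr3 rose by 0.78 (SE 0.13, adjusted p = 0.00838) and kept its call without any 1 library. Fgfr2, the main keratinocyte FGF receptor, was at 0.26 (SE 0.31, adjusted p = 0.583). Without control 2, control 3 or each of control 1 and cKO 1 the 5 lower became 1, 2 and 3, and they were 3 under median-of-ratios scaling.

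Sostdc1, a secreted inhibitor of Wnt and BMP signals known for restricting placodes, rose, with its highest value in the library labelled cKO 3. It stood at 54.2, 17.1 and 28.7 FPKM in control-labelled libraries and at 82.9, 89.5 and 183.5 FPKM in cKO-labelled libraries. The groups did not overlap, though control 1 stood well above the other controls. The difference was 1.85 (SE 0.44, limma adjusted p = 0.0245), from 33.3 ± 19 to 118.7 ± 56.3 FPKM (SD, n = 3 each). Without the library labelled cKO 3, control 2 or control 3 it was 1.49, 1.47 and 1.83 and no longer called (adjusted p = 0.0516, 0.0782 and 0.076).

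Its partners moved in different directions. Lrp4, the receptor that SOSTDC1 binds, was at 0.65 (SE 0.29, adjusted p = 0.155), with 48.3, 21.4 and 31.2 FPKM in control-labelled libraries and 56.8, 57.6 and 39.6 FPKM in cKO-labelled libraries. Of 20 tested Wnt partners, 3 were higher and 1 lower (median 0.11), where 5.87% and 13.6% of all genes were. Sfrp1 (2.05, SE 0.29, adjusted p = 0.00381), Fzd6 (0.59) and Fzd10 (0.88) rose, and Dkk3 fell by 2.58. The call of Sfrp1, a secreted Wnt antagonist gene like Dkk4 and Sostdc1, held without any 1 library. Fzd6 and Fzd10 lost theirs without control 2, control 3, cKO 1 or cKO 2 (highest adjusted p 0.0673 and 0.127), which left 1 higher, and Dkk3 lost its call without control 1 or control 3 (highest adjusted p 0.0608). Without control 1 there were 5 higher. Of 14 tested BMP partners, Id2, a BMP target gene (-1.34, SE 0.36, adjusted p = 0.0369), and the receptor gene Acvr1 (-0.8, SE 0.24, adjusted p = 0.0498) were lower. None was higher (1 at an unadjusted p under 0.05, none by limma-voom). The related target genes Id1 (0.84, limma adjusted p = 0.0688) and Id3 (0.37, adjusted p = 0.31) went the other way and were not called. The count of higher BMP partners was 0 to 1 with each library left out and 0 to 2 under the other alternatives. The 2 lower of 14 stand beside 13.6% of all genes called lower, a share near that background. Acvr1 was called in 3 of 18 alternatives, and 1 BMP partner was lower under median-of-ratios scaling and none with no filter. No BMP partner was called lower without control 1, control 2, control 3 or cKO 2, and 1 was without cKO 1.

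Trps1 encodes a GATA-type repressor of epithelium and dermal papilla, and its level followed neither label. It stood at 1.95, 4.75 and 5.23 FPKM in control-labelled libraries and at 5.21, 4.96 and 1.46 FPKM in cKO-labelled libraries. Control 1 and cKO 3 were low and the other 4 libraries were close to each other, so the groups overlapped. The difference of -0.07 (SE 0.43, limma adjusted p = 0.925) turned to 0.07 under median-of-ratios scaling. Fibroblast and dermal condensate markers other than Vim, 12 genes, summed to 104.5, 191.6 and 395.2 FPKM in control-labelled libraries and 566.6, 533.5 and 191.4 FPKM in cKO-labelled libraries. Of these 12, 1 (Sox18, also an endothelial gene) was called higher and none lower, beside 5.87% and 13.6% of all genes. Twist2 was at 0 in control 1. Vim, which melanocytes also express, fell. The part of dermal cells in the level of Trps1 was not tested.

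Pthlh, the parathyroid hormone-related peptide that keratinocytes send to the dermis, had lower values in the libraries labelled cKO. Its values were 17.4, 8.69 and 8.44 FPKM in control-labelled libraries and 5.82, 4.93 and 1.75 FPKM in cKO-labelled libraries. The groups did not overlap, with control 1 the highest library and cKO 3 the lowest. The difference of -1.31 (SE 0.4) narrowly failed the test (limma adjusted p = 0.0564), with means of 11.5 ± 5.13 and 4.17 ± 2.14 FPKM. It was -0.9 without cKO 3 and -1.56 without cKO 1, and not called with any 1 library left out (adjusted p = 0.0561 to 0.144). Pth1r, the receptor of the peptide and mostly a gene of mesenchyme, stood at 1.4, 2.44 and 10.3 FPKM in control-labelled libraries and 12, 9.43 and 3.88 FPKM in cKO-labelled libraries (0.94, SE 0.6, adjusted p = 0.298). Of 7 tested genes of the route, Prkar1a, a regulatory subunit of protein kinase A, fell by 0.79 (SE 0.12, adjusted p = 0.00551), and none rose (1 at an unadjusted p under 0.05; none by limma-voom). Without control 1, 2 were lower, and without control 3, 1 was higher. The 1 lower of 7 stands beside 13.6% of all genes called lower.

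**Figure D3:**
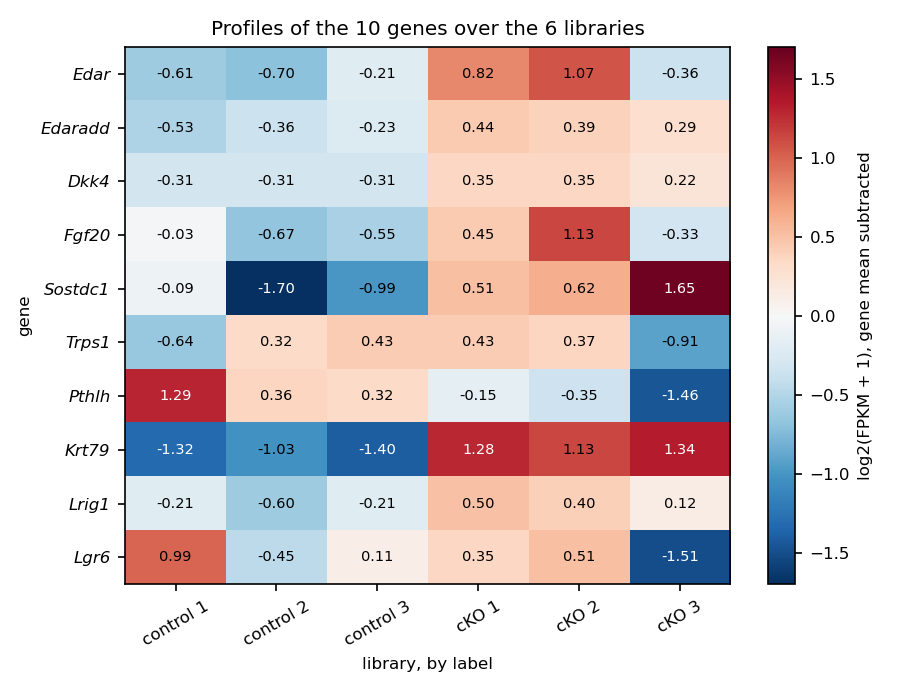
log2(FPKM + 1) of each gene with its mean over the 6 libraries subtracted (colour and printed values), by library. Krt79, Edaradd, Dkk4, Sostdc1, Lrig1 and, with the opposite sign, Pthlh have one sign in all control and the other in all cKO libraries, and cKO 3 stands apart from cKO 1 and 2 for Edar, Fgf20, Sostdc1, Trps1, Pthlh and Lgr6.

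Krt79, a keratin of the upper hair follicle, showed the largest difference of the 8 tested genes. It stood at 185.8, 228.2 and 175.6 FPKM in control-labelled libraries and at 1134, 1024 and 1182 FPKM in cKO-labelled libraries. The ranges lay far apart, and within each group the libraries spanned at most 0.38 on the log2 scale. The mean rose 5.66-fold, a difference of 2.5 (SE 0.13, limma adjusted p = 0.000286), which was called in each of 18 alternatives, at 2.43 to 2.71. The summed spinous markers, mostly Krt10 and Krt1, were higher in the same 3 libraries (4575 to 6431 and 34624 to 67947 FPKM). Of the 6, 4 were called higher, beside 5.87% of all genes. Dsc1 (0.01, limma adjusted p = 0.988) and Sbsn (-0.43, adjusted p = 0.0847) were not called, and Sbsn had lower values without overlap under the cKO label. The part of the spinous markers in the level of Krt79 was not tested. Its promoter is shown as that of the most changed gene, in the same windows and capitals as above.
Krt79 (chr15:101940325-101940574, minus strand): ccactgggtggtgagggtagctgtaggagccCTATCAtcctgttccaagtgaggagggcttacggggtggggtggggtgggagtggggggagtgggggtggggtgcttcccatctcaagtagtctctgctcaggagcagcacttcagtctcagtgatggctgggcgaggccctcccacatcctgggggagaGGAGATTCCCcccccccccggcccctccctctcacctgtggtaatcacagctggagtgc
It held 1 match to the NF-kappaB consensus, 59 to 50 bases before the start, and 1 GATA match at 219 to 214 bases, each on the other strand and so printed as the reverse complement.

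Lrig1, a transmembrane inhibitor of ErbB receptors that marks stem cells of the upper follicle, rose by a smaller step. It stood at 12.3, 9.22 and 12.4 FPKM in control-labelled libraries and at 20.9, 19.4 and 15.8 FPKM in cKO-labelled libraries. All 3 of the latter were above all controls, with cKO 3 nearest to them. The difference was 0.68 (SE 0.18, limma adjusted p = 0.039). The call held only without cKO 3 among the libraries left out, with an adjusted p of 0.0586 without control 1 and up to 0.13 (without cKO 1) for the other 4. Its exons overlap those of Slc25a26, on the opposite strand, by 144 bases in the GRCm38 annotation. Slc25a26 had 189 to 353 fragments per library against 4377 to 10088 for Lrig1.

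Lgr6, an R-spondin receptor of follicle and interfollicular stem cells, did not separate the groups. Its values were 26.7, 9.19 and 14.1 FPKM in control-labelled libraries and 16.8, 18.9 and 3.91 FPKM in cKO-labelled libraries. Control 1 was the highest and cKO 3 the lowest of all 6, and the other 4 lay between 9.19 and 18.9 FPKM. The difference of -0.43 (SE 0.57, limma adjusted p = 0.627) became 0.21 without cKO 3. Lgr4, the related receptor gene, was at -0.1 (SE 0.33, adjusted p = 0.852) and Lgr5 at 0.81 (SE 0.45, adjusted p = 0.242), with 0.00642 FPKM in control 2. None of 6 tested genes of the R-spondin system was called by limma (1, Rnf43, at an unadjusted p under 0.05; 1 by limma-voom). Rnf43, a ubiquitin ligase that removes Wnt receptors, was at 0.85 (SE 0.28, adjusted p = 0.0698).

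Around the ErbB receptors that LRIG1 restrains, ligand genes were among those called lower. Of 11 tested genes of that list, 5 were lower and 2 higher, where 13.6% and 5.87% of all genes were. The list median was -0.62, against -0.17 over all genes. The ligand gene Epgn fell by 3.22 (SE 0.3, adjusted p = 0.00116), from 20.1, 10.1 and 9.82 FPKM to 0.384, 0.328 and 0.684 FPKM. Areg, another ligand gene, fell by 2.31 (SE 0.35, adjusted p = 0.00519), and the receptor gene Met by 2.38 (SE 0.29, adjusted p = 0.00241). These 3 calls held without any 1 library. Lrig3, the paralogue, rose by 0.91 (SE 0.22, adjusted p = 0.0273), a call lost without control 1, control 2, cKO 1 or cKO 2 (highest adjusted p 0.0851). Egfr itself was at -0.21 (SE 0.14, adjusted p = 0.305). The 5 lower were 3 under median-of-ratios scaling and without any 1 library other than control 2, and the 2 higher were at most 1 with any 1 library left out.

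Among other upper follicle and sebaceous markers, Dgat2 and Cst6 rose. Of 12 tested, 2 were higher, where 5.87% of all genes were, and none was lower (3 and 0 at an unadjusted p under 0.05, and 3 and 0 by limma-voom), with a median of 0.28. Dgat2, an enzyme gene of triglyceride synthesis, rose by 2.06 (SE 0.23, adjusted p = 0.00202). Cst6, a protease inhibitor gene, rose by 2.14 (SE 0.32, adjusted p = 0.00489). Both held without any 1 library, and the count was 4 without cKO 3 or with the filter at a mean of 0.1 FPKM, and 5 with array weights.

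**Figure D4:**
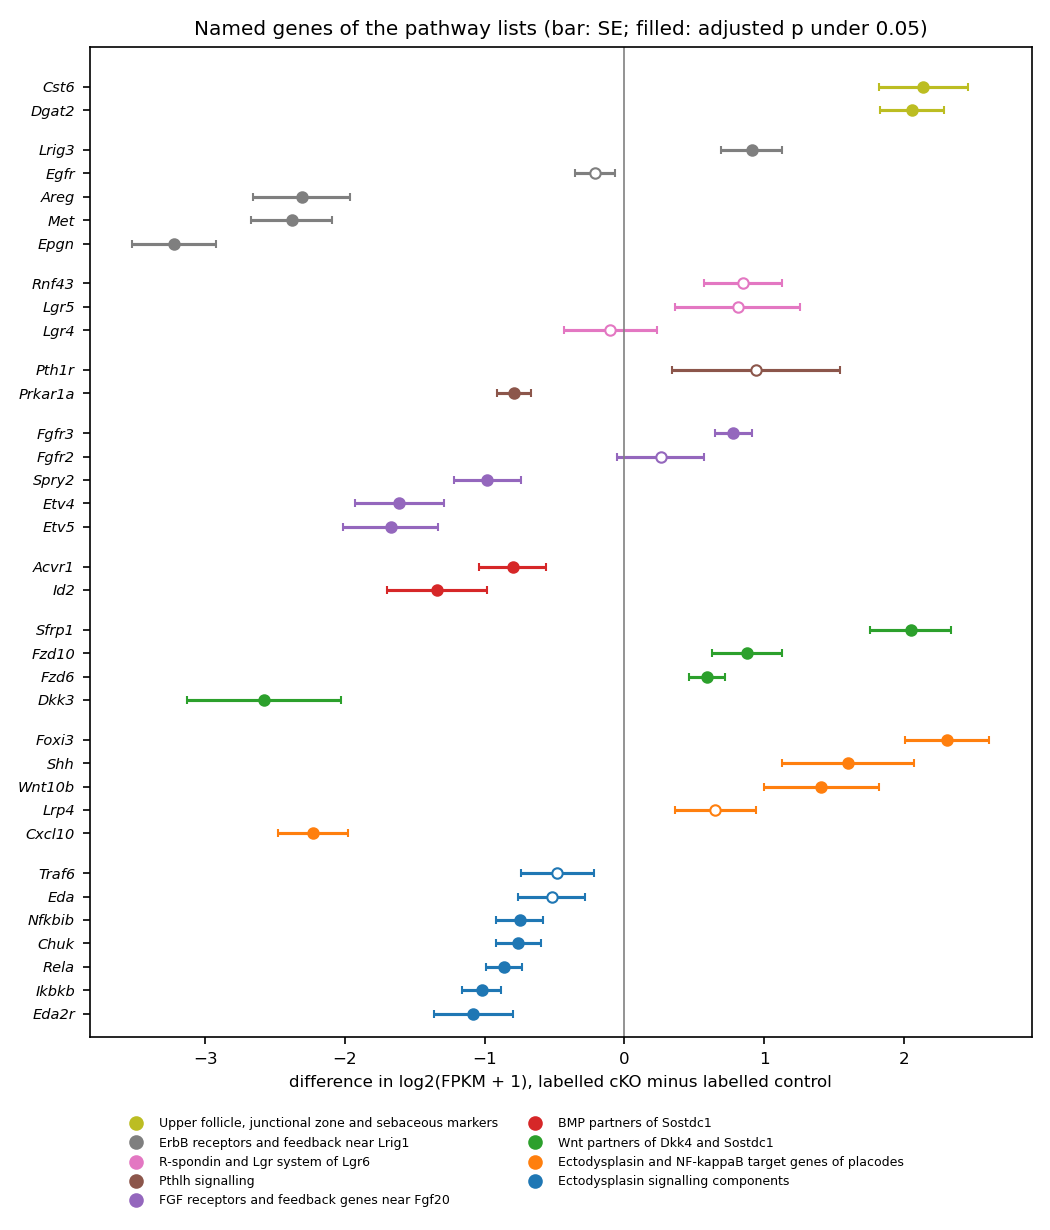
Difference in log2(FPKM + 1), labelled cKO minus labelled control (horizontal axis, bar: SE), for the named genes of the lists around the 10 genes, coloured by list; filled points have a limma adjusted p under 0.05. The 7 plotted ectodysplasin components lie below 0, but they were picked by lowest adjusted p among called genes, all of them lower, or by name. They do not stand for the whole list: among the components not plotted, Ikbkg was at 0.16 and Tnfaip3 at -0.04. Of the plotted genes, Epgn is lowest at -3.22 and Foxi3 highest at 2.31.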

How the data were processed

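The authors deposited 1 table of FPKM values of 17025 genes, per the file headers. Reads were handled with fastp, HISAT2 and HTSeq on GRCm39, per the submitters' processing notes, which give no versions. Strand use and annotation release: not given in the sources used here. Samples were grouped by title.

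Whole fragments were recovered for 17024 of 17025 genes (99.994%) from the steps of the deposited FPKM values, within a relative tolerance of 1e-09. The 11603 genes that averaged 1 FPKM or more were fitted on log2(FPKM + 1), a scale that understates changes of low genes, with limma 3.58.1 in R 4.3.3, with a mean-variance trend and group as the only term. Benjamini-Hochberg adjusted p-values over all of them were called under 0.05. The fit was also run on simulated data, with the same dispersion for every gene and as many genes raised as lowered. That simulation held no outlying library, so it does not speak to differences between libraries like those seen here.

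The 10 genes, the lists and the alternatives were chosen with earlier results of these data known. Named genes were the 10, Ash2l, the receptors and partners of the pathways, up to 4 called genes of each of 10 pathway lists by adjusted p (or the 2 lowest where none was called), and, for each tested gene, the 2 genes with the most similar profile, of which 1 is not reported here. The labels' replicate numbers were taken as names: deviations of same-numbered libraries had correlations of -0.31, 0.08 and -0.26. Promoters were RefSeq's. Figures used matplotlib 3.10.9.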

Additional observations from a re-analysis of the deposited data

How the results depend on the processing

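Krt79 kept its call in 18 of 18 alternatives. Ash2l lost its call under the replicate block (0.81, adjusted p = 0.0613) and lay between 0.67 and 0.94 with each library left out. The 4 genes higher became 2 under the replicate block (Sostdc1 and Krt79), where 1 (Pthlh) was lower, and 1 to 4 with each library left out. Array weights gave 1 lower as well. Of the genes in the pathway lists, 11 were higher and 22 lower; the 11 became 34 with array weights, 17 under median-of-ratios scaling, 18 with quantile normalization, 7 without a variance trend, 6 under the replicate block and 5 to 16 with each library left out. The 22 became 14 under the replicate block and 11 to 17 with each library left out. Over all genes, 681 higher and 1576 lower became 1423 and 2831 with array weights, 432 and 893 under the replicate block, and with each library left out 390 to 715 and 712 to 1448. Values with no call changed sign for Trps1 (0.11 with array weights, 0.07 under median-of-ratios scaling or the upper quartile, 0.15 with quantile normalization, 0.09 by limma-voom, and from -0.41 to 0.36 with each library left out) and for Lgr6 (0.4 with array weights, and from -0.8 to 0.21 with each library left out). Trps1 was not tested with the filter at 5 FPKM. Edar was called with array weights (1.39) and quantile normalization (1.22). Lrig1 (adjusted p = 0.0575) and Sostdc1 (adjusted p = 0.0603) were not called with no filter. With 0 to 125 fragments, Dkk4 and Fgf20 are limited by depth. The cause of these changes was not tested.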

Other observations

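For each tested gene the most similar profiles over the 6 libraries were sought among 8202 named genes averaging 5 FPKM or more, predicted genes and pseudogenes left out,, by the root mean square difference of log2(FPKM + 1) after centring each gene. With so many candidates, close matches are to be found for most profiles, and no test was made. Edar lay closest to Fndc10 (0.175), which stood at 2.5, 2.79 and 3.27 FPKM in control-labelled libraries and at 8.7, 9.01 and 4.26 FPKM in cKO-labelled libraries. Edaradd lay closest to Rxra (0.0499), a nuclear receptor gene, and Fam53c (0.0529). Sostdc1 was closest to Fstl3 (0.259), which encodes a secreted activin inhibitor, and Nme3 (0.269). Trps1 was closest to Sms (0.033) and Heca (0.113).

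Pthlh lay closest to Itga6 (0.0979), the gene of the integrin used for the sort, and Nfkbia (0.15), an NF-κB inhibitor gene. Itga6 stood at 162, 78.8 and 72 FPKM in control-labelled libraries and at 53.6, 53 and 19.7 FPKM in cKO-labelled libraries. Krt79 was closest to Arg2 (0.119) and Prom2 (0.176), Lrig1 to Neo1 (0.0699) and Prorp (0.0833), and Lgr6 to the Notch ligand gene Jag2 (0.129) and the laminin gene Lama5 (0.212). Jag2 stood at 48, 16.9 and 25.5 FPKM in control-labelled libraries and at 30, 33.9 and 5.79 FPKM in cKO-labelled libraries.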
